A study of Bos taurus with 8 samples.

Results

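The genes described here are components of the Hedgehog pathway, chosen by symbol from textbook knowledge of the pathway, with earlier results of these data known. They are the receptor *PTCH1*, the signal transducer *SMO*, the transcription factors *GLI1*, *GLI2* and *GLI3*, their inhibitor *SUFU*, the ligand-binding antagonist *HHIP*, and the co-receptors *GAS1* and *BOC*. Of these 9 genes, 8 were found among 18871 named genes and all 8 passed the filter on low counts, which left 18339 genes to test. *GLI1* was not analysed here. RNA-seq read counts were compared between 4 clones grown from intramuscular fat (IMF) and 4 clones grown from subcutaneous fat (SF). Each clone was grown from the stromal vascular fraction, the non-adipocyte cells released when fat is digested. Limiting dilution aimed at no more than 1 cell per well. The donors were adult Angus-cross steers (castrated males), slaughtered after a high-energy finishing diet. Clones were picked for fast growth, strong adipogenic potential and fibroblast-like shape, so each stands for 1 picked clone and not for a depot. The labels name no engineered allele or drug for any clone. The methods place RNA collection in growth medium before induction, whereas the deposited design text places adipogenic induction first. Within a depot the methods tie each clone to a sample of that depot's stromal vascular fraction, but which IMF and SF clones share an animal is not given. The p-values set the difference between the groups against the spread between these clones.

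Hedgehog proteins are secreted, lipid-modified signals. Without them, PTCH1 holds SMO inactive, SUFU retains the GLI proteins, and GLI3 in particular is processed into a repressor. When a ligand binds PTCH1, helped by the co-receptors CDON, BOC and GAS1, SMO gathers in the primary cilium and the GLI proteins switch on target genes, among them *PTCH1* and *HHIP*, which damp the signal. In mesenchymal tissue the pathway is known for restraining adipogenesis, and in muscle for acting on myogenic cells. No sequence is shown for these genes, since none was analysed here.

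Total counts on named genes ranged from 19654917 to 29308882 for IMF, and between 19979899 and 24868233 for SF. Levels are given as CPM (counts scaled to a common TMM-normalized library size) for comparisons of 1 gene between clones, and as TPM (which also divides by the deposited gene length) for comparisons between genes. A count of 3, taken as the floor of detection, corresponded to between 0.0981 and 0.165 CPM and covers counting error only. Preadipocyte and fibroblast markers were detected as a list in both groups, with the collagen gene *COL1A1* the most abundant, which does not by itself establish the cell type. All 13 of 13 skeletal muscle markers tested were higher in IMF, with a summed level of 612 to 749 CPM in the IMF clones and 2.50 to 25.4 CPM in the SF clones. Endothelial markers summed to 267 to 323 CPM in IMF and 46.2 to 82.3 CPM in SF, with 14 of 16 higher in IMF and *CLDN5* the most abundant (36.9 and 31.3 CPM). Preadipocyte and fibroblast markers summed to between 21700 and 22666 CPM in IMF and to between 35743 and 40028 CPM in SF, a gap smaller than that of *COL1A1* alone (means of 12372 and 30090 CPM). Of 13 such markers tested, 2 were higher and 3 lower in IMF past both limits used below, with a median log2 fold change of 0.20. *CD34*, a usual marker of such progenitors, was at the floor throughout SF, as were 8 of the muscle markers, among them *MYOD1* (162 CPM in IMF).

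*SMO* and *BOC* were lower in the IMF clones, each by a little over a factor of 2, and were the only Hedgehog genes of the 8 tested that passed both limits (adjusted p under 0.05, and a log2 fold change, log2FC, of 1 or more in either direction, by edgeR's quasi-likelihood test). *GLI3* was also lower in IMF, by less than the fold limit. None was called higher in IMF. Of all genes tested, 8.82% passed both limits, 4.78% as higher and 4.04% as lower in IMF, against 2 of these 8 genes (25.0%), both lower. Of all calls, 54.2% were higher in IMF, and 66.7% with scaling to total counts alone. An adjusted p under 0.05 of any size was reached by 3 of the 8 genes (37.5%) and by 25.8% of all genes. In 5 of the 8 genes (62.5%) the 4 IMF and the 4 SF clones did not overlap in CPM, as in 32.1% of all genes. The median log2FC was -0.59 over the 8 genes and -0.03 over all genes. These are bulk measurements, in which fewer cells expressing a gene and less RNA per cell cannot be told apart.

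**Figure D1:**
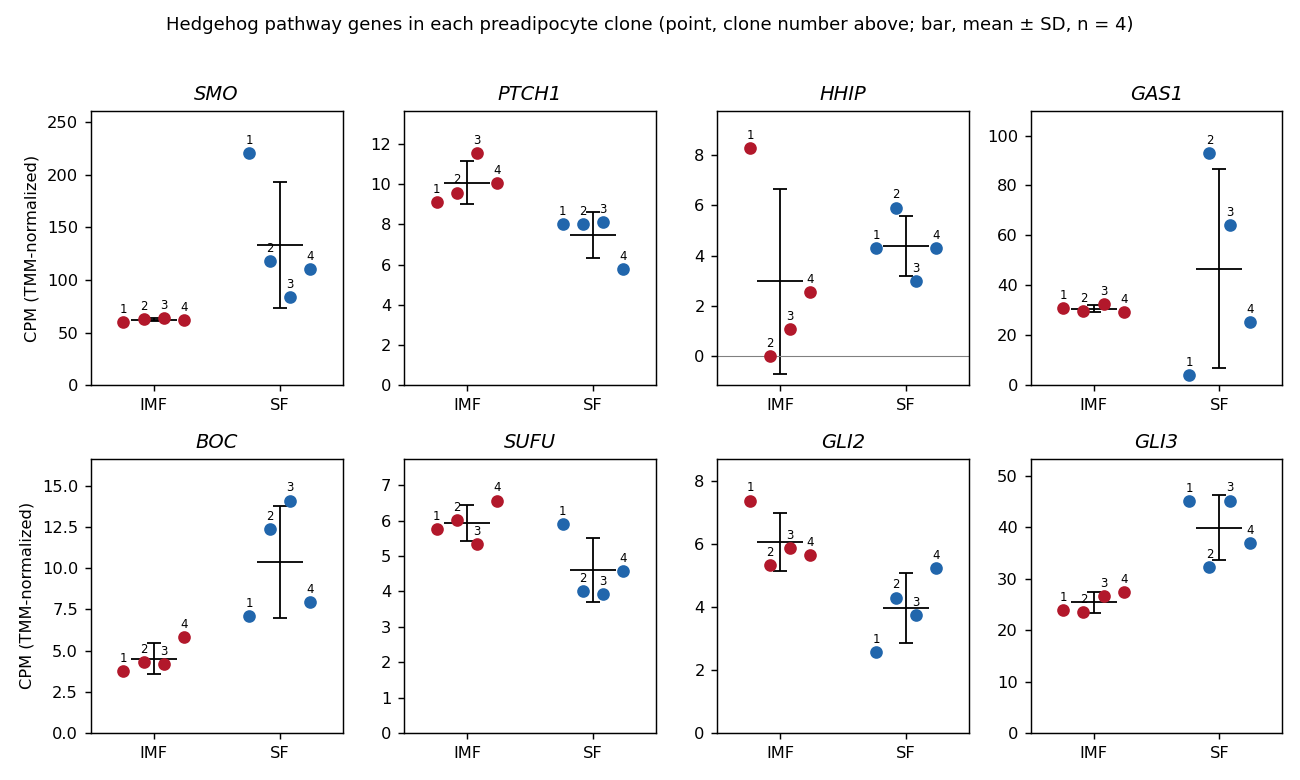
Normalized level (CPM, linear axis) of the 8 Hedgehog pathway genes in each of the 4 IMF clones (red) and 4 SF clones (blue), with the clone number above each point and the group mean ± SD as bars. The IMF clones lay close together for *SMO* and *GAS1* and far apart for *HHIP*, whereas the SF clones ranged from 4.00 to 93.1 CPM for *GAS1*.

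*SMO* encodes the seven-pass membrane protein that carries the signal into the cell. It lies on chromosome 4, 93108630 to 93132945 (ARS-UCD2.0). The IMF clones had 60.2, 62.5, 63.8 and 62.3 CPM, and the SF clones had 221, 118, 84.0 and 111 CPM in the order of clone numbers. The groups did not overlap, the IMF clones were nearly level, and SF1 was the highest by far. The mean was 62.2 ± 1.497 CPM in IMF against 133 ± 60.2 CPM in SF (SD, n = 4 each), 2.14-fold higher in SF, with a log2FC of -1.10 (standard error, SE, 0.27; adjusted p = 0.0178). The size of this difference rested in part on SF1: without that clone the log2FC was -0.74 (adjusted p = 0.00289), short of the fold limit. Scaling by total counts alone also brought it below the limit, to -0.95, as did a fit with a block for the clone number, to -0.9998. The adjusted p of *SMO* stayed under 0.05 in all 15 alternatives, from 0.000743 to 0.0472. Markers of pericytes and smooth muscle, led by *ACTA2*, also had their highest summed level in SF1 (7486 CPM, against 1556 to 4724 CPM in the other SF clones and 1279 to 1430 CPM in IMF), with 3 of 7 markers higher and 3 lower in IMF, and their part in the *SMO* difference was not tested.

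*BOC* encodes a co-receptor of the immunoglobulin superfamily that binds Hedgehog ligands, and it lies on chromosome 1, 57984296 to 58023212. It had 3.74, 4.32, 4.17 and 5.85 CPM in the IMF clones and 7.08, 12.4, 14.1 and 7.93 CPM in the SF clones. Every SF clone lay above every IMF clone, with SF2 and SF3 well above SF1 and SF4. The mean was 4.52 ± 0.922 CPM in IMF against 10.4 ± 3.41 CPM in SF (SD, n = 4 each), 2.30-fold higher in SF (log2FC -1.20, SE 0.26, adjusted p = 0.0100). *BOC* stayed past both limits in all 15 alternatives, with log2FCs from -1.35 to -1.04 and adjusted p-values from 0.00016 to 0.0331.

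*GAS1* encodes a membrane-anchored co-receptor, and it lies on chromosome 8, 80130072 to 80133303, on the same chromosome as *PTCH1* (82098128 to 82168564). It was the most uneven of these genes among the SF clones. The IMF clones had 31.0, 29.8, 32.5 and 29.2 CPM. The SF clones had 4.00, 93.1, 64.3 and 25.4 CPM, so that SF2 and SF3 lay above all IMF clones and SF1 and SF4 below them. The coefficient of variation was 4.70% in IMF and 85.1% in SF. The SF value was above that of 97.7% of the 15111 genes with an SF mean of 1 CPM or more, where the median gene had 16.8%. The IMF value was above that of 21.3% of genes, where the median gene had 8.30%. The log2FC of *GAS1* was -0.61 (SE 0.70, adjusted p = 0.576), and its 95% confidence interval reached from -2.22 to 1.00. It rested on single SF clones and on the tool, with -0.99 without SF1, -0.03 without SF2 and 0.10 with limma-voom, and the adjusted p ranged from 0.0845 to 0.979 over the alternatives. SF1, the clone with the least *GAS1*, was the clone with the most *SMO*. SF2 and SF3 had more *GAS1* than SF1 and SF4, and also more *BOC*.

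The remaining co-receptor, *CDON*, is the close relative of *BOC* and is known for promoting myoblast differentiation. Its difference was opposite in sign to that of *BOC*: 67.7 ± 3.33 CPM in IMF against 20.4 ± 7.40 CPM in SF (SD, n = 4 each), 3.32-fold higher in IMF (log2FC 1.73, SE 0.23, adjusted p = 0.00110). It passed both limits in all 15 alternatives. Counts of *CDON* were 1393, 1962, 1592 and 1421 in the IMF clones and 243, 415, 446 and 548 in the SF clones. Per length, *CDON* stood 9.07 to 14.0 times as high as *BOC* within each IMF clone (median 12.6) and 1.01 to 2.99 times as high within each SF clone (median 1.35), without overlap. The skeletal muscle and endothelial marker sums differed between the groups in the same direction as *CDON*, and their part in it was not tested.

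**Figure D2:**
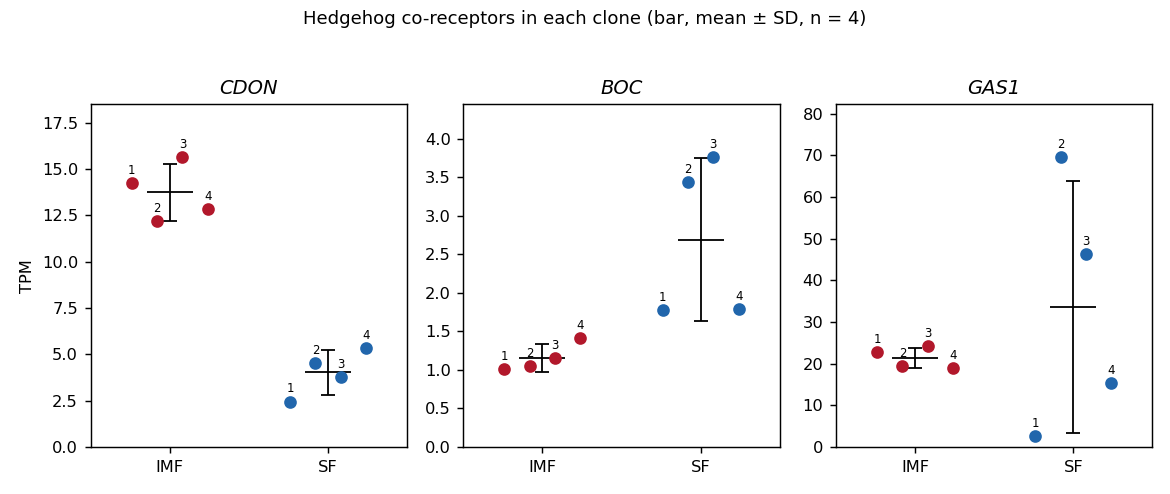
Level per length (TPM, linear axis starting at 0) of the Hedgehog co-receptors *CDON*, *BOC* and *GAS1* in each clone (points, clone number above), with the group mean ± SD (n = 4). *CDON* was higher in every IMF clone (red) than in any SF clone (blue), *BOC* the reverse, and *GAS1* reached 69.7 TPM in SF2, the highest value plotted.

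*PTCH1*, the Hedgehog receptor and itself a target of the pathway, had 9.12, 9.58, 11.6 and 10.0 CPM in the IMF clones and 8.01, 8.01, 8.12 and 5.79 CPM in the SF clones. All IMF clones lay above all SF clones, and SF4 lay below the other SF clones. The log2FC of 0.43 (SE 0.14) missed the threshold, with an adjusted p of 0.0570 that ranged from 0.0248 to 0.188 over the alternatives. It was under 0.05 with DESeq2 and with total counts alone. Within clones, the TPM of *SMO* was 13.4 to 16.0 times that of *PTCH1* in IMF (median 15.4) and 25.1 to 66.8 times in SF (median 41.0), and these ranges did not overlap.

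*HHIP* encodes a membrane protein that binds and sequesters Hedgehog ligands, and it lies on chromosome 17, 13448750 to 13558329. Its counts were 172, 0, 24 and 54 in the IMF clones and 84, 118, 74 and 78 in the SF clones. Thus the SF clones differed by up to about a factor of 2 in CPM (3.00 to 5.91), whereas the IMF clones ran from the lowest to the highest value of the 8, with 0 in IMF2, the most deeply sequenced clone. A count of 0 there allows a level of up to 0.0981 CPM. In CPM the IMF clones had 8.25, 0, 1.09 and 2.57, a coefficient of variation of 123%, above that of 99.6% of the genes with an IMF mean of 1 CPM or more. The log2FC between the groups was -0.57 (SE 1.03, adjusted p = 0.732) with a 95% confidence interval from -2.92 to 1.78. It moved with single clones and with the tool: it was -1.87 without IMF1, -0.16 without IMF2 and -3.00 with limma-voom, and the adjusted p ranged from 0.149 to 0.885 over the alternatives. All 8 counts of *HHIP* were even numbers. This was the case for 243 of the 13362 genes averaging 50 counts or more (1.82%), and how these counts arose was not tested. Among 682 other genes with only even counts and a mean of 10 to 500, the share at 0 was 1.61% in IMF1, 9.53% in IMF2, 6.30% in IMF3, 8.80% in IMF4 and 2.20% to 2.93% in the SF clones. Among 9834 genes with some odd counts in the same range it was 0.224%, 1.19%, 1.03% and 0.986% in the IMF clones and 1.55% to 2.00% in the SF clones.

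*GLI3*, whose processed form is the main repressor of Hedgehog targets, lies on chromosome 4, 78747083 to 79065262. It had 24.0, 23.5, 26.7 and 27.5 CPM in the IMF clones and 45.2, 32.4, 45.2 and 37.0 CPM in the SF clones. All SF clones were above all IMF clones (25.4 ± 1.97 against 40.0 ± 6.38 CPM, SD, n = 4 each). The difference of 1.57-fold gave a log2FC of -0.65 (SE 0.12, adjusted p = 0.00550), and the adjusted p stayed under 0.05 in all 15 alternatives.

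*GLI2*, the main activator at the start of signalling, lies on chromosome 2, 72492719 to 72753985. It had 7.39, 5.33, 5.89 and 5.66 CPM in the IMF clones and 2.57, 4.30, 3.73 and 5.23 CPM in the SF clones. The groups did not overlap, although SF4 came close to the lowest IMF clone. Its log2FC of 0.62 (SE 0.23, adjusted p = 0.0824) did not pass, and its adjusted p ranged from 0.0355 to 0.185 over the alternatives. *GLI3* stood 2.56 to 3.82 times as high as *GLI2* per length within the IMF clones (median 3.52) and 5.56 to 13.9 times as high within the SF clones (median 7.73). *SUFU*, which holds GLI proteins in the cytoplasm (chromosome 26, 23107772 to 23247245), had 5.35 to 6.57 CPM in IMF and 3.94 to 5.90 CPM in SF. The groups overlapped through SF1 alone. Its log2FC was 0.36 (SE 0.17, adjusted p = 0.149), and without SF1 the adjusted p was 0.0287.

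**Figure D3:**
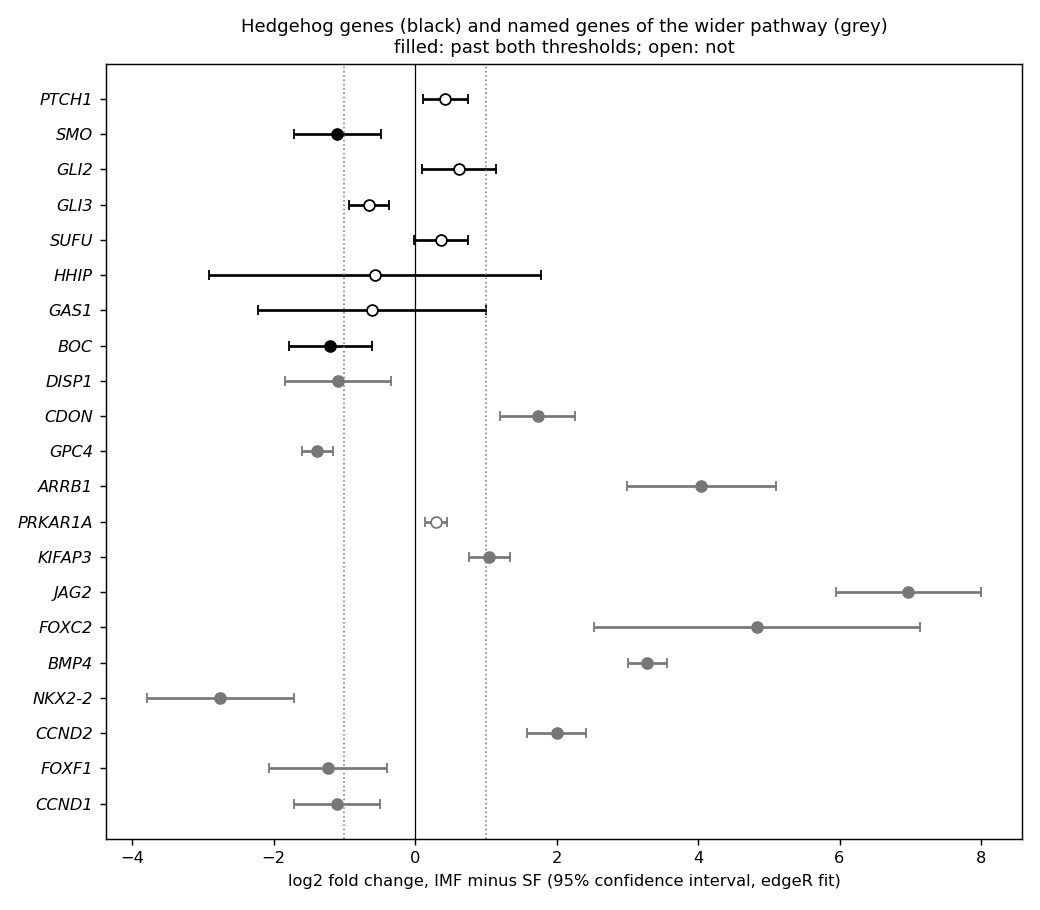
Log2FC (IMF minus SF) with its 95% confidence interval from the edgeR fit for the 8 Hedgehog genes (black) and the named genes of the wider pathway (grey), with dotted lines at the fold limit and filled points for genes past both limits. *SMO* and *BOC* lie to the left, *CDON* to the right, and the intervals of *HHIP* and *GAS1* are wide.

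Compared per length, *SMO* and *GAS1* were the most abundant of the 8 genes in both groups. In IMF the order was *SMO* (28.5 ± 2.14 TPM), *GAS1* (21.3 ± 2.50), *SUFU* (6.31 ± 0.264), *GLI3* (5.04 ± 0.531), *PTCH1* (1.91 ± 0.291), *GLI2* (1.54 ± 0.314), *BOC* (1.16 ± 0.182) and *HHIP* (0.556 ± 0.703) (mean TPM ± SD, n = 4). Neighbours from *SMO* down to *PTCH1* did not overlap in their ranges over clones, whereas *PTCH1* overlapped with *GLI2*, *GLI2* with *BOC* and *BOC* with *HHIP*. In SF the order was *SMO* (59.9 ± 26.5 TPM), *GAS1* (33.5 ± 30.3), *GLI3* (7.81 ± 1.38), *SUFU* (4.84 ± 0.868), *BOC* (2.69 ± 1.06), *PTCH1* (1.41 ± 0.311), *GLI2* (0.978 ± 0.250) and *HHIP* (0.789 ± 0.256). There, *SMO* overlapped with *GAS1*, *GAS1* with *GLI3*, *PTCH1* with *GLI2*, and *GLI2* with *HHIP*. *SMO* was above 83.4% of the genes tested in IMF and 92.1% in SF, and *HHIP* above 18.4% and 22.4%. *SUFU*, with a deposited length of 1560 bases the shortest of the 8, ranked higher in TPM than in CPM, where it was 6 of 8 in both groups.

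The genes whose profile over the 8 clones was nearest to that of *BOC* were *JAKMIP3*, *RAC3* and *IFNAR2*, with root mean square differences of 0.18 to 0.22 log2 CPM after centring, where the profile of *BOC* itself had 0.66. Nearest to *SMO* (0.62) were *ABHD15*, *APP* and *RIMKLB*, with 0.12 to 0.13. The search covered the 13064 genes with a mean of 1 CPM or more over the 8 clones whose symbol was found in RefSeq.

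In the wider pathway, 110 further genes were listed by role and 96 of them tested, of which 7 were higher and 5 lower in IMF past both limits (12.5%, against 8.82% of all genes). The number lower was 3 when IMF2, IMF3, IMF4, SF2 or SF4 was left out, and 2 with total counts alone. The lists of the wider pathway were chosen with earlier results of these data known, so their shares are not independent of these data. The ligands *SHH*, *IHH* and *DHH* were not analysed here. Of 5 genes of ligand release tested, 1 was lower and 0 higher in IMF. *DISP1*, which frees the lipid-modified ligand from the cell that makes it, had 165 to 293 counts in IMF and 155 to 573 in SF (log2FC -1.09, SE 0.33, adjusted p = 0.0413). SF1, at 7.96 CPM, lay among the IMF clones (7.92 to 10.4 CPM), and the other SF clones lay above them. Its call was lost in 10 of 15 alternatives (adjusted p from 0.000695 to 0.0994). Of 7 other receptors and binding proteins tested, 1 was higher (*CDON*) and 1 lower in IMF. The lower one was *GPC4*, a cell surface heparan sulfate proteoglycan, with 62.2 ± 1.08 CPM in IMF against 162 ± 20.5 CPM in SF (SD, n = 4 each; log2FC -1.38, SE 0.10, adjusted p = 4.3e-05), and it had the highest mean TPM of that list over the 8 clones. That rank came through SF (64.5 TPM, against 36.5 TPM for *MGRN1*), whereas in IMF *GPC4* (24.9 TPM) was below *MGRN1* (33.6 TPM).

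Of 31 cytoplasmic regulators tested, 1 passed both limits, although 13 had an adjusted p under 0.05, 7 of them higher and 6 lower in IMF. These are 3.23% and 41.9% of the list, against 8.82% and 25.8% of all genes. The gene past the limits was *ARRB1*, a beta-arrestin that binds activated membrane receptors including SMO, with 9.90 ± 1.20 CPM in IMF against 0.607 ± 0.411 CPM in SF (log2FC 4.04, SE 0.46, adjusted p = 0.00051). *PRKAR1A*, the regulatory subunit of protein kinase A, which marks GLI proteins for processing, had the highest level of the list, at 123 TPM in IMF and 99.1 TPM in SF (log2FC 0.30, adjusted p = 0.0127). Without IMF2 its adjusted p was 0.0509. Of 33 genes of primary cilium transport, 1 was higher and 0 lower in IMF (3.03%). It was *KIFAP3*, the accessory subunit of the kinesin that carries cargo into the cilium (81.6 ± 3.84 against 39.5 ± 7.56 CPM, log2FC 1.05, SE 0.13, adjusted p = 0.000677). Without SF1 or without SF3 its log2FC was 1.00 or 0.96, just under the fold limit before rounding. The median log2FC was -0.09 over the cytoplasmic regulators and 0.02 over the cilium genes.

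Among genes reported elsewhere as GLI targets, 4 of 20 tested were higher and 3 lower in IMF (35.0% past both limits, against 8.82% of all genes, of which 4.78% were higher and 4.04% lower). This list, too, was chosen with earlier results of these data known, so its share is not independent of them. The higher ones were *JAG2*, a Notch ligand (329 to 482 counts in IMF and 6, 0, 3 and 2 in SF, adjusted p = 2.7e-05), *FOXC2*, a forkhead factor of fat and lymphatic vessels (36 to 68 counts in IMF and 6, 0, 0 and 0 in SF, adjusted p = 0.00907), *BMP4*, a bone morphogenetic protein (log2FC 3.28, SE 0.12), and *CCND2*, a D-type cyclin (2.00, SE 0.18). The lower ones were *NKX2-2*, a factor of the ventral neural tube (10 to 13 counts in IMF and 33 to 115 in SF, log2FC -2.74, SE 0.45), *FOXF1*, a mesenchymal forkhead factor (-1.23, SE 0.37), and *CCND1*, the cyclin with the highest mean TPM of the list over the 8 clones (-1.10, SE 0.27). It led through SF (155 TPM), whereas in IMF *CCND1* (74.4 TPM) was below *RAB34* (106 TPM) and *SNAI2* (93.0 TPM). The call of *FOXF1* was lost in 9 of 15 alternatives, where its adjusted p reached 0.122, and that of *CCND1* fell short of the fold limit without SF4 (-0.82) and with total counts alone (-0.94). All these genes also answer to other signals. The direct targets *PTCH1* and *HHIP* did not pass the test, as described above. The endothelial and skeletal muscle marker sums were higher in every IMF clone than in any SF clone, as were *JAG2*, *FOXC2*, *BMP4* and *CCND2*, and the part of these cell types in the differences was not tested.

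**Figure D4:**
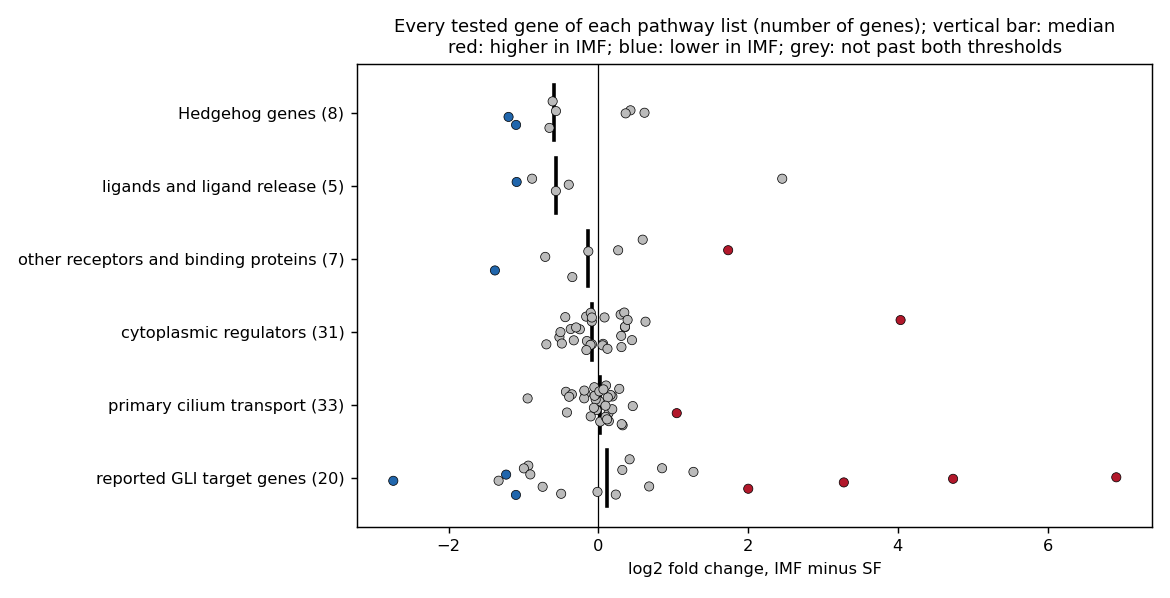
Log2FC (IMF minus SF) of every tested gene in the 8 Hedgehog genes and in the 5 lists of the wider pathway, with the number of genes in parentheses, the list median as a vertical bar, genes past both limits in red (higher in IMF) or blue (lower) and the rest in grey. *ARRB1* is the 1 cytoplasmic gene and *KIFAP3* the 1 cilium gene past both limits, and the reported targets spread in both directions.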

How the data were processed

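RNA-seq was analysed for 8 bovine preadipocyte clones, 4 IMF and 4 SF, grouped by the sample titles. Per the methods, the authors used Trimmomatic 0.39 for trimming, HISAT2 for alignment to ARS-UCD2.0 and featureCounts 2.0.2 for counting, and the submitters' processing notes name STAR 2.7.11a as a tool. The deposited values are raw read counts for each gene in each clone, with a gene length in bases as another value (other than counts). Columns of their own DESeq2 comparison (fold changes, test statistics, p-values and calls) were not used. The library kit is called non-stranded in the methods, whereas the labels describe a dUTP protocol, so genes that overlap on opposite strands may share reads.

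A row without a gene name (0.0148% to 0.0209% of counts) was left out. Genes whose counts summed to 20 or more were tested with edgeR 4.0.16 (R 4.3.3, TMM, two-sided quasi-likelihood test, Benjamini-Hochberg adjustment over all 18339 genes), and called at an adjusted p under 0.05 and a log2 fold change of 1 or more in size. The script was tested on simulated data. Gene positions were taken from RefSeq (ARS-UCD2.0). Of 18871 gene IDs, 14201 were found there as symbols, 351 of these had a deposited length above the RefSeq gene span, and 4207 of 4979 IDs that begin with LOC were not found. As a check for a library deposited in duplicate only, clones of a group were compared with counting noise, and none agreed within it (chi-square per gene from 41.3 to 125).

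The Hedgehog genes and all lists were chosen with earlier results of these data known. Named were the 8 genes, in each pathway list the genes past both limits (at most 6) and the one with the highest TPM, the ligands, the most abundant gene of marker lists where their sums are discussed, and the 3 nearest profiles of each called gene. Genes given in addition, such as *CD34*, were chosen after their values were seen. Marker lists of Schwann cells, cartilage and bone, epithelium and leukocytes were also summed. Schwann cell markers, led by *PMP22*, summed to 66.3 to 72.7 CPM in IMF and 71.2 to 114 CPM in SF, cartilage and bone markers (*RUNX2*) to 111 to 118 and 84.7 to 122 CPM, epithelial markers (*KRT14*) to 4638 to 7297 and 3179 to 5657 CPM, and leukocyte markers (*PTPRC*) to 21.1 to 46.4 and 56.9 to 99.5 CPM. The alternatives were DESeq2 1.42.0, limma-voom (limma 3.58.1), RLE factors, scaling to total counts alone, omitting the filter, requiring 10 or more counts in 4 or more clones, a block for the clone number, and the omission of each clone singly.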

Additional observations from a re-analysis of the deposited data

Results flagged for a closer look

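The level of *PTCH1* in SF4 (5.79 CPM) stood apart from the other SF clones, which had 8.01, 8.01 and 8.12 CPM. Its gap to the nearest clone was 0.953 of the range of the group, above the 95% critical value of Dixon's test for 4 samples. It was the only clone that stood apart in this way among the 16 groups tested (8 genes in each depot), and chance flags about 1 in 20 groups.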

How the results depend on the processing

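Over 15 alternatives, *BOC* kept its call in all and *SMO* in 12, and *GLI3* kept an adjusted p under 0.05 in all. The number of Hedgehog genes past both limits fell from 2 to 1 (*BOC*) with scaling to total counts, in the fit with a replicate block for clone numbers, and without SF1 (1 to 2 when each clone was left out in turn). The number with an adjusted p under 0.05 rose from 3 to 5 with DESeq2 and with total counts alone, through *PTCH1* and *GLI2*. The number of wider pathway genes lower in IMF fell from 5 to 2 with total counts alone and was 3 to 5 when each clone was left out. The log2 fold change of *GAS1* turned to 0.10 with limma-voom (adjusted p = 0.943, where the alternatives spanned 0.0845 to 0.979). With total counts alone the median of all genes moved from -0.03 to 0.12, and 66.7% in place of 54.2% of the genes past both limits were higher in IMF, so that differences there are larger towards IMF. In the block fit the log2 fold change of *SMO* was -0.9998 (adjusted p = 0.0422), short of the fold limit, the adjusted p of *PRKAR1A* was 0.0553, and 1489 genes passed in place of 1618. Same-numbered clones were not paired by any label, so the numbers were not taken as pairs. Their deviations from the group means had correlations of -0.0093 to 0.139 (4 pairs, mean 0.055). Clones of different number had -0.105 to 0.109 (12 pairs, mean -0.018). With so few pairs, these correlations cannot decide whether same-numbered clones share an animal. The order of levels in CPM differed from that in TPM, mostly through *SUFU*. The intervals of *HHIP* and *GAS1*, the genes most uneven between clones of a group, cover the difference seen for *SMO*. The causes of these changes were not tested.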

Other observations

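Several genes of the wider pathway that did not pass the test were uneven among the SF clones, mostly through SF1, and are given as values chosen after they were seen. *SCUBE2*, which helps release Hedgehog ligands, had counts of 308, 415, 295 and 280 in IMF1 to IMF4 and of 177, 0, 19 and 4 in SF1 to SF4, so that the groups did not overlap while the adjusted p was 0.144 (log2 fold change 2.45, standard error 1.11). *NR2F1*, a nuclear receptor, had 4398 counts in SF1 and 653 to 1491 in the other SF clones, against 963 to 1625 in IMF. *OSR1*, a mesenchymal zinc finger factor, had 387 counts in SF1 and 83 to 106 in the other SF clones, against 282 to 416 in IMF. SF1 also held the most *SMO* (221 CPM) and the least *GAS1* (4.00 CPM) and *GLI2* (2.57 CPM) of all 8 clones, and *SUFU* was higher there than in the other SF clones (5.90 CPM).

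*DISP2* and *FOXL1*, like *HHIP*, had only even counts and 0 counts in IMF2. *DISP2* had 24, 0, 6 and 16 counts in IMF1 to IMF4 and *FOXL1* had 26, 0, 0 and 2, each with the most of the IMF clones in IMF1. The other gene of the wider pathway with only even counts, *EVC*, had 816, 1306, 866 and 868 counts in IMF1 to IMF4, with none at 0 and the most in IMF2. How these counts arose was not tested.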
